A study of Homo sapiens with 6 samples.

Results

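The genes described here build the kinetochore, run the spindle checkpoint or drive mitosis as kinases and ubiquitin enzymes. They were taken as 48 gene symbols: AURKA, AURKB, BUB1, BUB1B, TTK, PLK1, PLK4 and NEK2 among the kinases, and the kinetochore, checkpoint and anaphase genes named below. All 48 had a probe on the array, and 46 were measured, out of 10781 named genes measured in all. A gene counted as measured when a probe of it had a detection p under 0.05, its signal set against the negative control probes of the same array, on at least 3 of the 6 arrays. The probe with the highest mean stood for the gene. CENPI, a subunit of the inner kinetochore, was detected on at most 2 arrays by either probe, and UBE2S, an elongating ubiquitin enzyme, on 0 arrays, so neither was compared. The 46 measured genes were each detected on all 6 arrays.

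The cells were Capan1, a well differentiated human pancreatic cancer line, grown as a layer on a gel of type I collagen and Matrigel. In 3 samples the gel also held PS1, a line of pancreatic stellate cells, the fibroblast-like cells that make the stroma of pancreatic tumours, and in 3 samples Capan1 grew without them. All gels were lifted onto a grid after 24 hours and harvested on day 10, and laser microdissection of frozen sections took the cancer cell layer for RNA. The comparison asks how these genes differ in the cancer cells when stellate cells lie in the gel. A label naming PS1 as the line the cells met stands on all 6 samples and conflicts with the titles of the 3 samples alone, so each direction below rests on the titles. Both groups are a single cancer line each, PS1 is a single stellate line, and no source used here says whether the replicates were separate cultures, so the p-values speak only of the spread among these 6 arrays, part or all of which may be technical.

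A kinetochore is the protein structure that assembles on each centromere and grips spindle microtubules in mitosis. While any kinetochore is unattached, the spindle checkpoint keeps CDC20 from activating the anaphase-promoting complex, a ubiquitin ligase known as APC/C, and chromatids stay joined. Most of these genes are transcribed in G2 and M phase and shut off in G1, so their RNA is widely used as a measure of how many cells in a culture are near mitosis. On bulk arrays such as these, fewer cells in mitosis and less RNA per cell cannot be told apart.

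With stellate cells in the gel, 26 of the 46 genes fell and 0 rose at a limma adjusted p under 0.05, where limma is a linear model fitted over all 18165 probes measured and p was adjusted by Benjamini-Hochberg. Over all 10781 genes 2.11% fell and 2.65% rose by the same rule. At an unadjusted limma p under 0.05, 40 of the 46 were lower and 0 higher, and over all genes 9.25% were lower. The median log2 change, with stellate cells minus alone, was -1.13 over the 46 genes and 0.02 over all genes. The values ran from -1.96 for CDCA3 to 0.34 for MIS12, which alone lay above 0. In 36 of the 46 genes (78.3%) each array with stellate cells lay below each array alone, against 11.5% of all genes. Of the 20 genes that did not pass, 19 had values below 0.

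**Figure D1:**
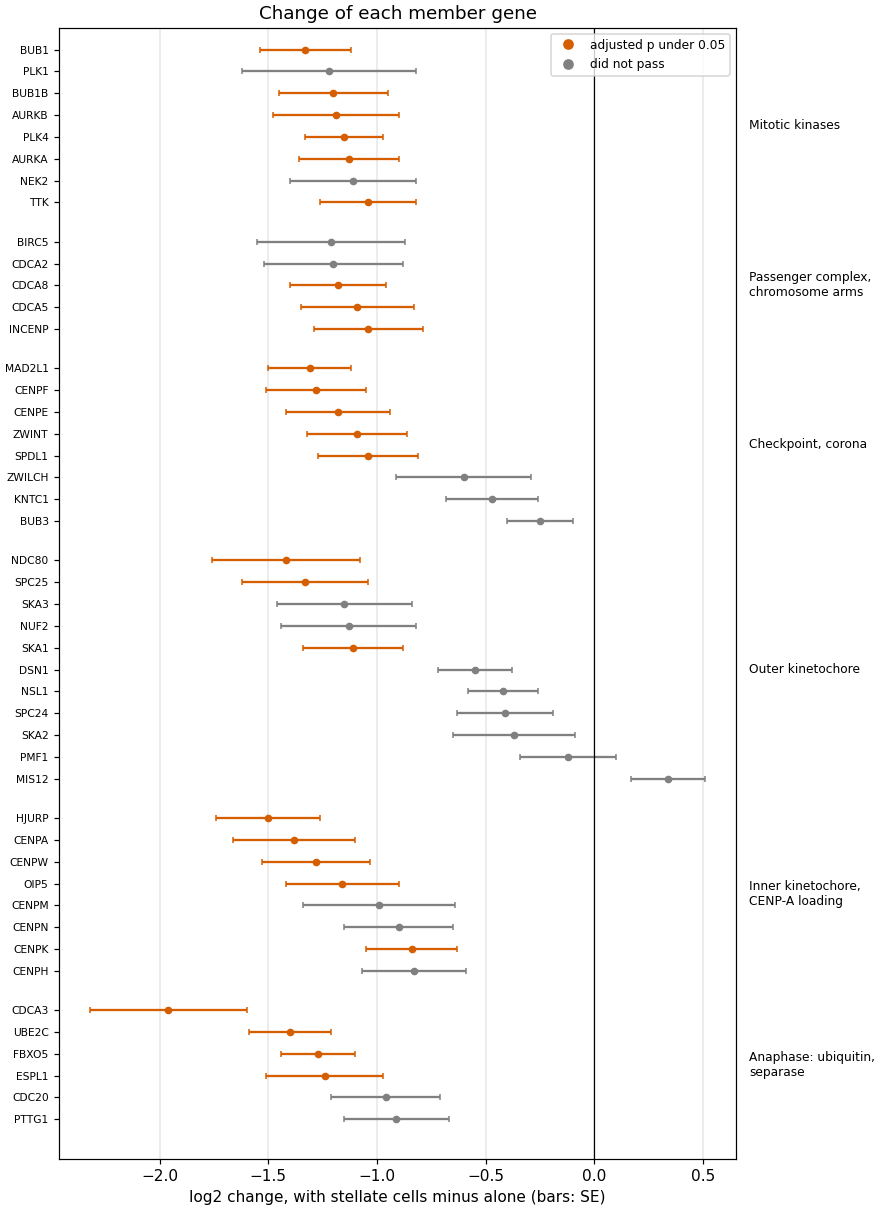
Change of each of the 46 genes on the log2 scale, with stellate cells minus alone, with its SE from the limma fit (3 arrays a group), grouped by role. Orange points passed an adjusted p under 0.05, and 45 of the 46 points lie below 0.

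Replicate 3 with stellate cells stood apart from its group. It held the highest of the 3 stellate values in 41 of the 46 genes. Set against the mean of the arrays alone, the median difference was -1.44 for the mean of replicates 1 and 2 and -0.49 for replicate 3. Replicates 1 and 2 both lay below each array alone in 44 genes. The shares of all genes with this order, or with replicate 3 highest, were not computed. Neither count has a background to be read against. Replicate 3 lay inside the range of the arrays alone in 6: PLK1, BIRC5, ZWILCH, KNTC1, CENPM and MIS12. It lay above each array alone in BUB3, SPC24 and SKA2, in SKA2 at 8.29 against 7.84 to 8.11. The median range among the 3 arrays was 1.00 with stellate cells and 0.29 alone, so most of the spread of these genes lay in the stellate group. The ranges over all genes were not computed. That array also had the fewest probes detected, 16325 against 17785 to 19602 on the others, and a 28S ribosomal RNA probe read a log2 intensity of 12.85 on it against 5.97 to 8.32. An 18S probe read 12.10 against 7.11 to 8.78. The part of these RNA measures in the results was not tested.

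**Figure D2:**
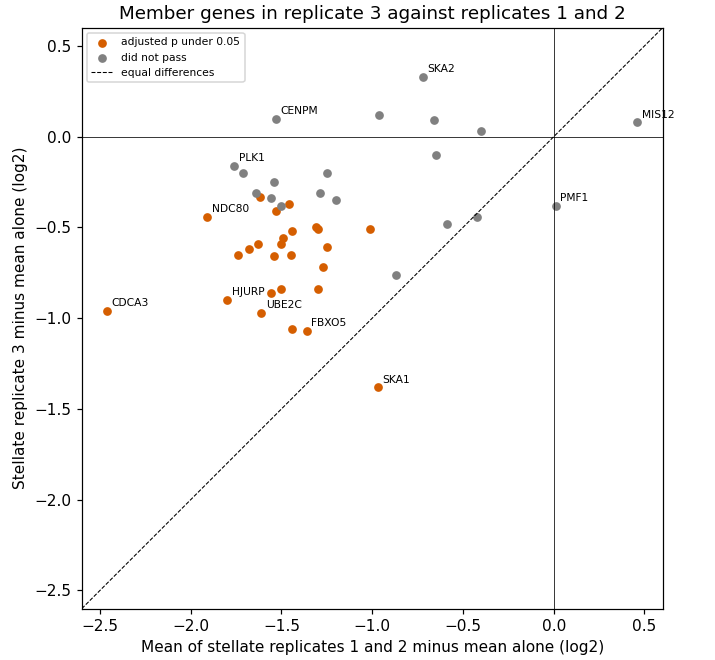
Each point is 1 of the 46 genes. The x axis is the mean of replicates 1 and 2 with stellate cells minus the mean alone, and the y axis is replicate 3 with stellate cells minus the mean alone, both on the log2 scale. Most points lie above the dashed line of equal differences, with medians of -1.44 and -0.49, while SKA1, PMF1, MIS12 and NSL1 lie below it.

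Without replicate 3 with stellate cells 42 of the 46 genes fell and 1, MIS12, rose, in a fit in which 8% of all genes fell. Of all 18165 probes 2758 passed in that fit in either direction, and 7.7% of all probes were lower. Leaving out replicate 1 or 2 with stellate cells left 6 and 11 genes lower, and leaving out replicate 1, 2 or 3 alone left 7, 6 and 5. Calls fell over the whole array too. Without replicate 1 or 2 with stellate cells 0.528% and 0.897% of all probes were lower. Without replicate 1, 2 or 3 alone the shares were 0.727%, 0.457% and 0.358%, against 2% with all 6 arrays. The median change of the 46 genes kept its sign in the 6 fits with 1 array left out, between -1.45 and -0.89. MAD2L1, HJURP, UBE2C and FBXO5 passed in all 6, and BUB1 and PLK4 in 5. The others passed in 3 or fewer, and BUB3, NSL1 and PMF1 in 0. Of these others 31 passed in 1 fit only, the fit without replicate 3 with stellate cells. Among the 31 were these genes that fell with all 6 arrays: AURKA, AURKB, BUB1B, TTK, INCENP, CDCA5, SPDL1, CENPE, NDC80, SPC25, CENPA, CENPK, OIP5 and ESPL1.

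**Figure D3:**
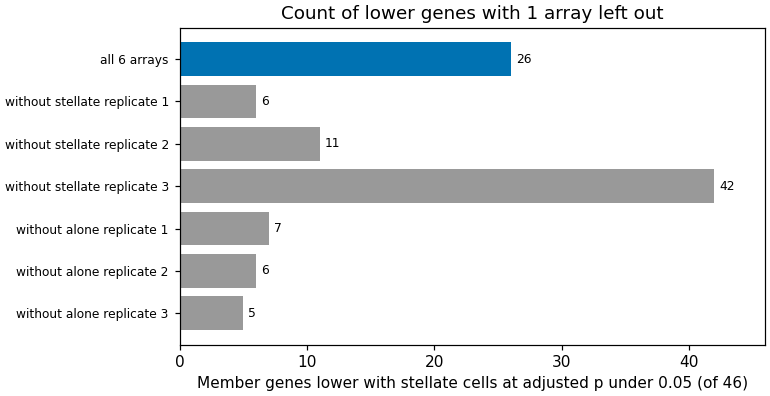
Number of the 46 genes that fell at a limma adjusted p under 0.05 with all 6 arrays and with 1 array left out. The count is 26 with all arrays, 42 without replicate 3 with stellate cells, and 5 to 11 without any other array.

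Promoters of cell cycle genes are known to carry the cell cycle homology region, or CHR, which binds the MuvB complexes that silence them in G1 and activate them in G2, often beside CCAAT boxes bound by NF-Y. RefSeq promoter windows of 300 bases on GRCh38.p14, from 250 bases before to 50 after the start site, were matched for 39 of the 48 genes. The CHR was searched on both strands as TTTGAA, its common spelling, and as the variant TTCGAA. It was present in 24 of the 39 windows, or 61.5%, against 16.4% of all 35116 windows and 11.4% of the 8720 windows of measured genes. With TTTGAA alone it was present in 51.3% against 15.2% of all windows. Of the 27 matches 23 began within 50 bases of the start site. CCAAT was in 69.2% of the 39 windows against 34.6% of all and 37.2% of those of measured genes, and CHR and CCAAT together in 43.6% against 6.38% and 4.98%. The E2F motif, searched as TTNNCGC with an inner pair of C or G bases on both strands, was in 35.9% against 13% of all windows and 20.8% of the windows of measured genes. A CHR was found in 19 of the 23 windows of genes that fell and in 5 of the 14 windows of measured genes that did not pass. These are matches of letters in sequence, with no binding measured, and no test was made of the shares. The windows below belong to the 3 genes with the smallest p that had a window, and to PMF1, the gene with the change nearest 0, to set the start-site CHR of MAD2L1 and PLK4 beside windows that lack it. Capitals mark matches to the CHR, CCAAT and E2F motifs on either strand.
FBXO5, chr6:152983530-152983829, minus strand: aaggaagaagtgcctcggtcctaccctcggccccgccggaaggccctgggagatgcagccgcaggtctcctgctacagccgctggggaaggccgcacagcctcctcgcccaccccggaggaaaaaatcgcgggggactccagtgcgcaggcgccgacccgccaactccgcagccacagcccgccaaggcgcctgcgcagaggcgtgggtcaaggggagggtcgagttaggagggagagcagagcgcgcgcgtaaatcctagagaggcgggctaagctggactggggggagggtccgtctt
MAD2L1, chr4:120066799-120067098, minus strand: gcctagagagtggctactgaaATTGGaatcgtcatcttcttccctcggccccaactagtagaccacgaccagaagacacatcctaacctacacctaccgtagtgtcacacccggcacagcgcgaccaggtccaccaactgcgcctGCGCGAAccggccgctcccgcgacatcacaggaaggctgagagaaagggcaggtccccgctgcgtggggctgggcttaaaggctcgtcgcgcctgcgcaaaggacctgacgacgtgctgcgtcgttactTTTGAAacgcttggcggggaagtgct
PLK4, chr4:127880643-127880942, plus strand: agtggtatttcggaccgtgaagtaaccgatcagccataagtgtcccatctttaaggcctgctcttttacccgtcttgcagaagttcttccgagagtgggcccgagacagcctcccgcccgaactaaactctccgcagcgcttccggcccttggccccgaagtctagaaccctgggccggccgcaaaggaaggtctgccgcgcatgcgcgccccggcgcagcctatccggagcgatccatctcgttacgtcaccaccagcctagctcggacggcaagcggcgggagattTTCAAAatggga
PMF1, chr1:156212757-156213056, plus strand: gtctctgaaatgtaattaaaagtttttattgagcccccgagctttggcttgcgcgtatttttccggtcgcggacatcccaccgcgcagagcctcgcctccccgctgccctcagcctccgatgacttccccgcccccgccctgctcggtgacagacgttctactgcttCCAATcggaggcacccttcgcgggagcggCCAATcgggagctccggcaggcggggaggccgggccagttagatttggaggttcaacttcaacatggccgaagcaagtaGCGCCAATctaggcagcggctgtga
In MAD2L1 the CHR began 25 bases after the start site, and an inverted CCAAT and an inverted E2F match began at bases -229 and -105. In PLK4 the CHR was on the opposite strand, 39 bases after the start site, and no other motif was found. FBXO5, which fell, had no match in this window. PMF1 had 3 CCAAT boxes and no CHR, and its E2F match overlapped the CCAAT box that began at base 29 after the start.

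All 8 mitotic kinases had values below 0, from -1.33 for BUB1 to -1.04 for TTK, and 6 of them fell. PLK4, the kinase that starts centriole duplication and whose window with the inverted CHR is printed above, read log2 intensities of 7.91, 7.77 and 8.30 in stellate replicates 1, 2 and 3, the order used throughout, against 9.11, 9.07 and 9.23 in the arrays alone. Its groups did not overlap, and it fell by 1.15 ± 0.18 (SE, limma adjusted p = 0.0053, n = 3 arrays each). BUB1, a checkpoint kinase that marks centromeric histone H2A, read 7.99, 7.75 and 8.56 with stellate cells against 9.28, 9.48 and 9.51 alone. It was 2.51-fold lower (limma adjusted p = 0.0053), with the highest stellate array still well under the lowest array alone. AURKA, the Aurora kinase of centrosomes and spindle poles, read 9.57, 9.25 and 10.33 against 10.78, 10.84 and 10.93 alone. It was 2.20-fold lower (limma adjusted p = 0.0189), replicate 3 lying closest to the arrays alone, and a further probe of it gave -1.13 as well (limma adjusted p = 0.0204). AURKB, the Aurora kinase of centromeres, fell by 1.19 ± 0.29, BUB1B, which encodes the checkpoint protein BUBR1, by 1.20 ± 0.25, and TTK, the kinase MPS1 at the top of the checkpoint, by 1.04 ± 0.22 (SE, limma adjusted p = 0.0434, 0.0215 and 0.0213).

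PLK1 and NEK2 did not pass. PLK1, the Polo kinase of mitotic entry and spindle assembly, read 6.38, 5.78 and 7.68 with stellate cells against 7.33, 8.27 and 7.91 alone. Its change of -1.22 ± 0.40 was of the size of the other kinases, but the groups overlapped and the SE was the largest among the kinases (limma adjusted p = 0.121). NEK2, which loosens the link between centrosomes, had a change of -1.11 ± 0.29 with groups that did not overlap (limma adjusted p = 0.055), and its other probe passed at -1.10 (limma adjusted p = 0.0324). Without replicate 3 with stellate cells all 8 kinases fell.

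**Figure D4:**
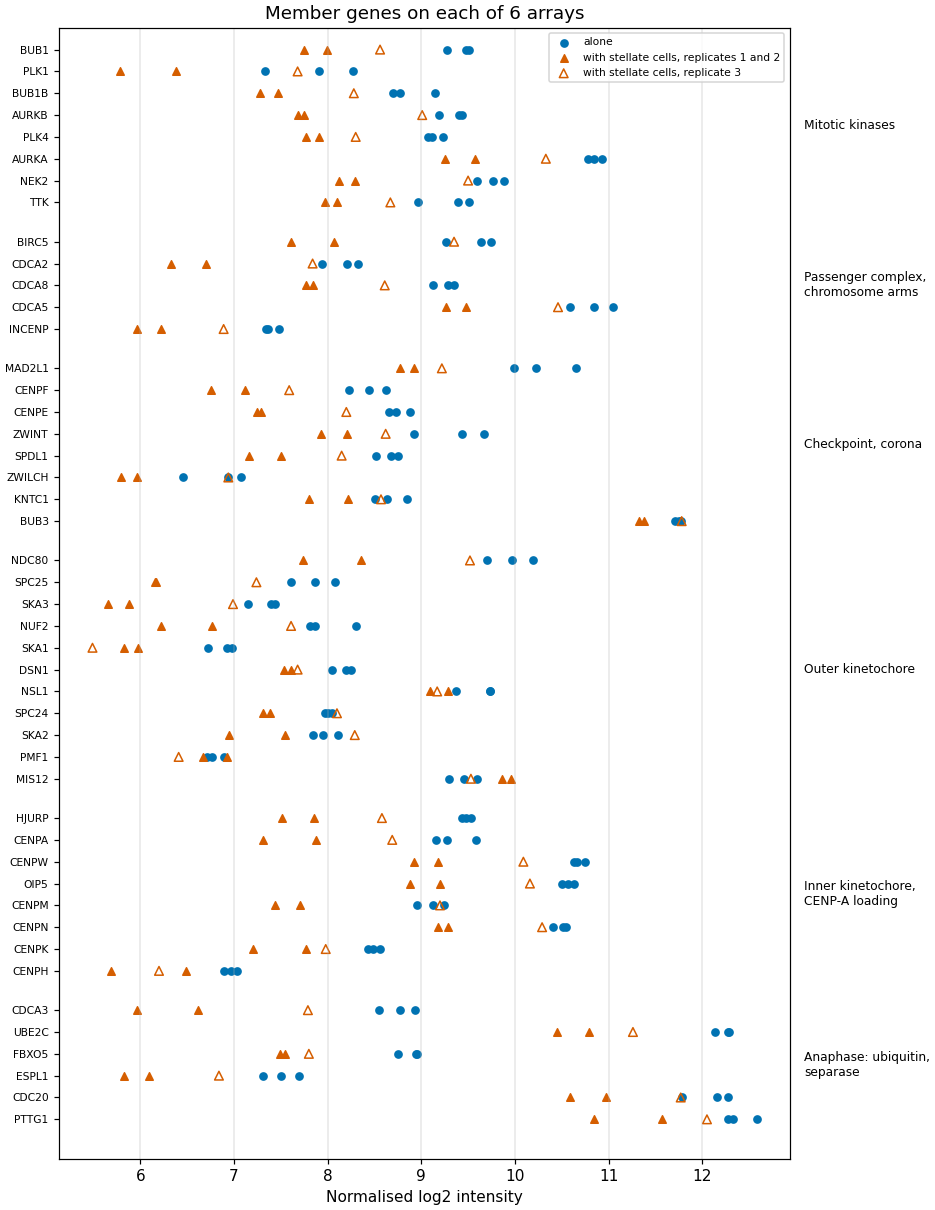
Normalised log2 intensity of each of the 46 genes on each array. Blue circles are the 3 arrays alone, filled triangles are replicates 1 and 2 with stellate cells, and open triangles are replicate 3 with stellate cells, which lies nearest the blue circles in most rows. Levels are comparable along a row and not between rows, since each row is a different probe.

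The chromosomal passenger complex joins AURKB to INCENP, survivin (BIRC5) and borealin (CDCA8) and corrects faulty attachments. Of its 4 genes 3 fell, and the changes lay between -1.21 and -1.04. CDCA8 read 7.84, 7.77 and 8.61 with stellate cells against 9.35, 9.13 and 9.29 alone. It was 2.27-fold lower with no overlap (limma adjusted p = 0.0129). INCENP, the scaffold of the complex, fell by 1.04 ± 0.25 (SE, limma adjusted p = 0.0393). BIRC5 read 7.61, 8.07 and 9.35 against 9.64, 9.26 and 9.74, so replicate 3 lay within the range alone, and its change of -1.21 ± 0.34 did not pass (limma adjusted p = 0.0752). A dim second probe of BIRC5, detected on 4 of the 6 arrays, gave -0.18 (limma adjusted p = 0.798). CDCA5, which encodes sororin, the protector of sister chromatid cohesion, read 9.48, 9.26 and 10.46 with stellate cells against 11.05, 10.59 and 10.84 alone. It was 2.14-fold lower (limma adjusted p = 0.0389), with replicate 3 just under the lowest array alone. CDCA2, a targeting subunit of protein phosphatase 1 on anaphase chromatin, had a change of -1.20 ± 0.32 that did not pass (limma adjusted p = 0.0603).

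Of 8 genes of the checkpoint and of the fibrous corona, the outermost layer of an unattached kinetochore, 5 fell. MAD2L1 encodes MAD2, the protein that captures CDC20, and its promoter with a CHR is printed above. It read 8.92, 8.77 and 9.22 with stellate cells against 9.99, 10.65 and 10.22 alone. It was 2.49-fold lower (limma adjusted p = 0.0039), and here replicate 3 sat close to the other stellate arrays. A dimmer MAD2L1 probe gave -0.74 and did not pass (limma adjusted p = 0.275). CENPF, a large corona protein, read 7.12, 6.75 and 7.59 with stellate cells against 8.44, 8.62 and 8.23 alone. It was 2.43-fold lower with no overlap (limma adjusted p = 0.0102). CENPE, the kinesin motor that carries chromosomes to the metaphase plate, fell by 1.18 ± 0.24 on the probe used and had -1.79 ± 0.34 on its other probe (SE, limma adjusted p = 0.0199 and 0.0147). ZWINT, which tethers the checkpoint complex of ROD, ZWILCH and ZW10, fell by 1.09 ± 0.23, and SPDL1, the spindly adaptor that recruits dynein, by 1.04 ± 0.23 (SE, limma adjusted p = 0.0216 and 0.0286).

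BUB3, ZWILCH and KNTC1 did not pass. BUB3, the partner that brings BUB1 and BUBR1 to kinetochores, read 11.32, 11.38 and 11.78 with stellate cells against 11.75, 11.71 and 11.77 alone. Replicates 1 and 2 were below and replicate 3 above each array alone, and the change of -0.25 ± 0.15 did not pass (limma adjusted p = 0.417). Its 3 other measured probes gave -0.67 ± 0.19, -0.59 ± 0.28 and -0.50 ± 0.33 (SE), none of which passed, and no test compared the probes. The probe at -0.50 was detected on 1 array with stellate cells and 3 alone. ZWILCH and KNTC1, which encodes ROD, had changes of -0.60 ± 0.31 and -0.47 ± 0.21 (limma adjusted p = 0.333 and 0.26).

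Of 11 outer kinetochore genes 3 fell, and the median change was -0.55. The members below are also given by complex, a division made after their values were seen. In the NDC80 complex, the rod that binds microtubules, NDC80 and SPC25 fell and NUF2 and SPC24 did not pass. SPC25 read 6.17, 6.16 and 7.24 with stellate cells against 7.87, 8.08 and 7.61 alone. It was 2.51-fold lower with no overlap (limma adjusted p = 0.024). NDC80 fell by 1.42 ± 0.34, NUF2 had a change of -1.13 ± 0.31 and SPC24 one of -0.41 ± 0.22 (SE, limma adjusted p = 0.0408, 0.0626 and 0.367). In SPC24 replicate 3 lay above each array alone, at 8.10 against 7.97 to 8.05.

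In the SKA complex, which helps kinetochores hold on to shrinking microtubules, SKA1 fell and SKA2 and SKA3 did not pass. SKA1 read 5.83, 5.98 and 5.49 with stellate cells against 6.98, 6.93 and 6.72 alone. It was 2.16-fold lower (limma adjusted p = 0.0192), and replicate 3 held the lowest of its values, against the pattern of most of these genes. The mean log2 intensity of SKA1 over all arrays, 6.32, was the lowest of the 46 genes, which limits what its array order can show. SKA3 had a change of -1.15 ± 0.31 and SKA2 one of -0.37 ± 0.28 (SE, limma adjusted p = 0.0618 and 0.54).

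None of the 4 genes of the MIS12 complex, the hub that links the inner and the outer kinetochore, passed. At an unadjusted limma p, DSN1 had 0.00756, NSL1 0.0224, MIS12 0.0662 and PMF1 0.588. MIS12 read 9.86, 9.96 and 9.53 with stellate cells against 9.59, 9.30 and 9.46 alone. Replicates 1 and 2 lay above and replicate 3 within the arrays alone, a change of 0.34 ± 0.17 (SE, limma adjusted p = 0.311). DSN1 and NSL1 had changes of -0.55 ± 0.17 and -0.42 ± 0.16, with groups that did not overlap (limma adjusted p = 0.104 and 0.181). PMF1, whose promoter without a CHR is printed above, had a change of -0.12 ± 0.22 (limma adjusted p = 0.823), and transcripts that read through into the next gene can share its sequence. Without replicate 3 with stellate cells DSN1 fell and MIS12 rose, and all 4 NDC80 complex genes and all 3 SKA genes fell. In that fit 2758 of all 18165 probes passed in either direction. No test compared the complexes with each other.

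CENPA, the histone H3 variant that marks centromeres, fell, as did HJURP and OIP5, which act in its deposition. HJURP, the chaperone of CENPA, read 7.85, 7.51 and 8.58 with stellate cells against 9.48, 9.44 and 9.53 alone. It was 2.83-fold lower (limma adjusted p = 0.00554), with values alone that lay within 0.09 of each other. CENPA fell by 1.38 ± 0.28 on the probe used, and its other probe gave -1.86 ± 0.20 (SE, limma adjusted p = 0.0201 and 0.000943). OIP5, the beta subunit of the MIS18 complex that primes centromeres for CENPA, fell by 1.16 ± 0.26 (SE, limma adjusted p = 0.0286). Of 5 measured genes of the constitutive centromere network, the inner layer bound to CENPA nucleosomes, CENPW and CENPK fell.

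CENPW, a histone-fold subunit of that network, read 9.18, 8.92 and 10.09 with stellate cells against 10.63, 10.75 and 10.66 alone. It was 2.43-fold lower with no overlap (limma adjusted p = 0.0149). CENPN, which reads the CENPA nucleosome, read 9.18, 9.29 and 10.29 against 10.55, 10.41 and 10.51. Its groups did not overlap either, but replicate 3 lay near the arrays alone, and the change of -0.90 ± 0.25 did not pass (SE, limma adjusted p = 0.064). CENPK fell by 0.84 ± 0.21 (SE, limma adjusted p = 0.0478). CENPM and CENPH had changes of -0.99 ± 0.35 and -0.83 ± 0.24 that did not pass (limma adjusted p = 0.154 and 0.0808).

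Of 6 measured genes of ubiquitin control, securin and separase 4 fell. UBE2C, the ubiquitin-conjugating enzyme that starts chains on APC/C substrates, read 10.79, 10.45 and 11.26 with stellate cells against 12.14, 12.29 and 12.27 alone. It was 2.64-fold lower (limma adjusted p = 0.00229), with no overlap, and its dimmer probe gave -1.76 ± 0.21 (SE, limma adjusted p = 0.0014). FBXO5 encodes EMI1, an inhibitor of the APC/C, and its promoter window without a motif match is printed above. It read 7.49, 7.54 and 7.80 with stellate cells against 8.94, 8.95 and 8.75 alone. It was 2.40-fold lower (limma adjusted p = 0.0026), and all 3 stellate arrays lay close together, although a dim second probe gave -0.47 and did not pass (limma adjusted p = 0.323).

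CDCA3, part of a ubiquitin ligase that promotes mitotic entry, read 6.62, 5.96 and 7.79 with stellate cells against 8.77, 8.93 and 8.55 alone. It was 3.88-fold lower (limma adjusted p = 0.0112), the widest change of the 46 genes, and the spread among its stellate arrays was 1.83. ESPL1, the protease separase that cuts cohesin at anaphase, fell by 1.24 ± 0.27 (SE, limma adjusted p = 0.0236). PTTG1, which encodes securin, the inhibitor of separase, read 11.57, 10.84 and 12.05 with stellate cells against 12.33, 12.28 and 12.58 alone. Its groups did not overlap, and the change of -0.91 ± 0.24 did not pass (limma adjusted p = 0.0597), while its other probe gave -1.29 ± 0.25 and did (limma adjusted p = 0.0149). PTTG1 has near-identical copies in the genome, so which of them its probes read is uncertain. CDC20, the activator of the APC/C, had a change of -0.96 ± 0.25 (limma adjusted p = 0.0531), and replicate 3 at 11.77 was just under the lowest array alone at 11.78.

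In 16 genes more than 1 probe was measured. The 20 further measured probes of these genes had values below 0 as well, and 8 of them passed. With the probes of each gene averaged, 24 of the 26 calls remained. ZWINT and SPC25 no longer passed, at -0.85 and -0.84 (limma adjusted p = 0.0639 and 0.119), and NEK2 and PTTG1 passed instead, at -1.11 and -1.10 (limma adjusted p = 0.0327 and 0.0269).

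Other genes that work with these in mitosis were read from lists. Of 10 regulators of mitotic entry 7 fell, and the median change was -1.14. CDK1, the kinase of mitotic entry, fell by 1.43 ± 0.20, its cyclins CCNB2 and CCNA2 by 1.21 ± 0.24 and 1.23 ± 0.26, and the activating phosphatase CDC25B by 1.18 ± 0.24 (SE, limma adjusted p = 0.00268, 0.0187, 0.021 and 0.0193). Of 7 measured condensin genes, which compact chromosomes, 4 fell, with a median of -0.79. NCAPG2 fell by 1.27 ± 0.19, NCAPD2 by 1.15 ± 0.19, NCAPG by 1.30 ± 0.28 and SMC4 by 0.79 ± 0.19 (SE, limma adjusted p = 0.00438, 0.00603, 0.0228 and 0.0408). Of 23 other measured centromere and kinetochore genes 5 fell, with a median of -0.40. Among them were SGO1, the shugoshin that protects centromeric cohesin, at -1.23 ± 0.25, TRIP13, the ATPase that recycles MAD2, at -1.09 ± 0.23, and the inner kinetochore subunits CENPL and CENPO, both at -0.98 (limma adjusted p = 0.0183, 0.0236, 0.024 and 0.0305). The fifth was MIS18A, a partner of OIP5, at -0.91 ± 0.22 (limma adjusted p = 0.0441).

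Of 13 measured subunits of the APC/C itself 0 passed, with a median of -0.07. The 2 with an unadjusted limma p under 0.05 were ANAPC1 at -0.42 and ANAPC13 at 0.37, beside 2197 of all 10781 genes. Of 10 measured cohesin genes SMC3, a core ring subunit, fell by 0.83 ± 0.17 (SE, limma adjusted p = 0.0189), and the median was -0.20. Of 20 measured transcription regulators of the cell cycle E2F7, an E2F repressor, fell by 1.01 ± 0.25 (SE, limma adjusted p = 0.0422), and the median was -0.17. FOXM1, a main activator of G2 and M phase genes, and LIN9, a MuvB subunit, had changes of -1.12 ± 0.31 and -0.73 ± 0.21 that did not pass (limma adjusted p = 0.0643 and 0.076), and both were picked after their values were seen. Of 7 measured reference genes 0 passed, with changes from -0.66 to 0.22. An unadjusted limma p under 0.05 was found in 1 of the 7, beside the 2197 of all 10781 genes. ACTB and GAPDH had changes of -0.08 ± 0.16 and 0.11 ± 0.15 (limma adjusted p = 0.835 and 0.747). HPRT1, a purine salvage enzyme, had the change of -0.66 ± 0.18 with groups that did not overlap (limma adjusted p = 0.0702), larger than the outer kinetochore median, and TBP, a basal transcription factor, one of -0.39 ± 0.22 (limma adjusted p = 0.4). Without replicate 3 with stellate cells 10 of the entry regulators, 7 of the condensins, 9 of the other centromere genes and 5 of the transcription regulators fell, as did SMC3, the APC/C subunit ANAPC11 and HPRT1. In the same fit 1 transcription regulator, the pocket protein RBL2, rose by 0.58 (limma adjusted p = 0.0184). Of all 18165 probes 2758 passed in that fit in either direction. Without any other single array the entry regulators that fell were 1 to 2, the condensins 2, the other centromere genes 0 to 1, the transcription regulators 0 and the APC/C subunits 0. The call of SMC3 was lost without replicate 1 or 2 with stellate cells, without replicate 2 or 3 alone (limma adjusted p = 0.0616, 0.0726, 0.0982 and 0.131) and without the intensity trend of the fit (limma adjusted p = 0.0538).

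**Figure D5:**
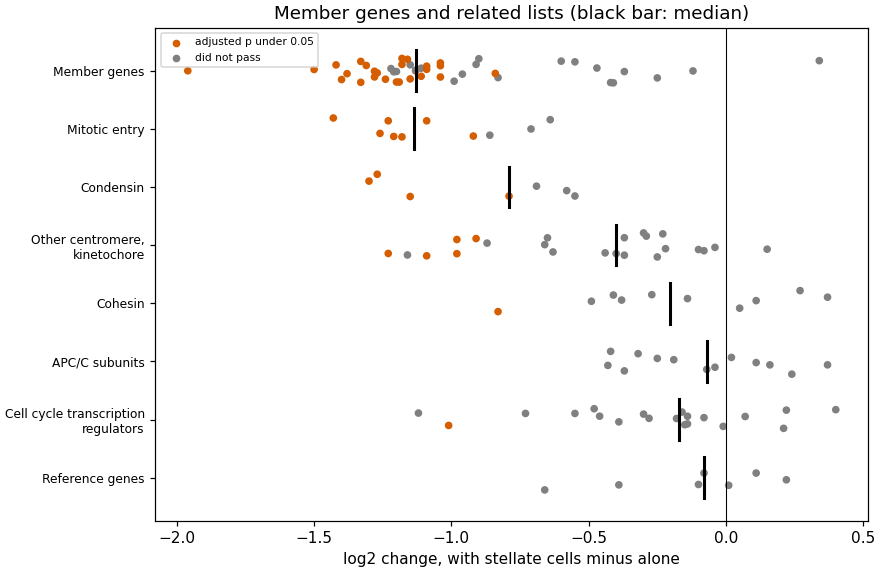
Change of each measured gene on the log2 scale, with stellate cells minus alone, for the 46 genes and for 7 related lists. Orange points passed a limma adjusted p under 0.05 and the black bar is the median of the list, at -1.13 for the 46 genes, -1.14 for mitotic entry, -0.79 for condensin and -0.07 for the APC/C.

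The captured layer read as epithelium. Of 10 epithelial and duct markers 9 were detected on all 6 arrays and the tenth, CFTR, on 4. Values above 0 were found in 8 of the 10, beside 5588 of all 10781 genes. Among the 8, KRT19, SOX9 and CDH1 were at 0.03, 0.07 and 0.10. EPCAM, an epithelial surface protein, had a log2 intensity of 12.61 ± 0.27 with stellate cells and 12.73 ± 0.20 alone (SD, n = 3). MUC1, a cell surface mucin, was the 1 marker that passed and rose 2.29-fold, by 1.19 ± 0.15 on the log2 scale (SE, limma adjusted p = 0.0015). The keratin KRT8 and the claudin CLDN4 had changes of 0.36 ± 0.14 and 0.71 ± 0.27 with groups that did not overlap (limma adjusted p = 0.197 and 0.176). Both rose without replicate 3 with stellate cells, in a fit in which 2758 of all 18165 probes passed in either direction. The part of these marker changes in the results was not tested. Among 20 stellate and fibroblast markers 9 were detected on no array, and 1, VIM, on all 6. Their summed normalised intensity was 656 to 769 with stellate cells and 673 to 708 alone, so the groups overlapped. Of the 5 measured markers 0 passed, and 2 had groups that did not overlap, in opposite directions, beside 2815 of all 10781 genes. TAGLN, an actin-binding protein of smooth muscle and activated fibroblasts, was detected on all 3 arrays with stellate cells and on 0 alone. It was at least 1.44-fold higher with them (mean log2 intensity of 5.77 and 4.91, limma adjusted p = 0.0674). TAGLN counted as measured only through the arrays with stellate cells, so its difference was partly set by that rule. ACTA2, smooth muscle actin, had a change of -1.04 ± 0.27 (SE, limma adjusted p = 0.0526). In that same fit without replicate 3 with stellate cells TAGLN and COL6A3 rose and ACTA2 fell (limma adjusted p = 0.0162, 0.0465 and 0.0105). COL6A3, a collagen gene, was dim and detected on 2 arrays with stellate cells and 1 alone. It read 5.49, 6.55 and 4.98 with stellate cells against 5.35, 4.86 and 4.95 alone, so replicate 2 stood out. Of the 6 defining markers COL1A2, LUM and PDGFRB were detected on no array, COL3A1 on 1 array alone, DCN on 2 arrays with stellate cells, and COL1A1 on 2 arrays with them and 3 alone. The part of stellate RNA in these results was not tested.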

How the data were processed

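RNA from laser-captured Capan1 cells was labelled with biotin and hybridised to Illumina BeadChips, 6 arrays in all. The deposited table gives an intensity per probe and array that is not normalized between arrays, and a detection p-value, per the file headers. The submitters' processing notes list BeadStudio and GenomeStudio 2011.1, and what came between scanner and table is not given in the sources used here. In addition, the authors' deposited value table holds intensity on a linear scale, not centred, in the same rank order as the signals (Spearman rho of 1.0000 on each array). Its column medians were 122.93, 122.96 and 122.90 for the stellate arrays, and 122.94, 122.94 and 122.93 for those alone. It served as an alternative.

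From the signals, limma 3.58.1 under R 4.3.3 corrected background (normexp, negative controls inferred from detection p-values, offset of 16), applied quantile normalization and took log2. Of 47228 probes 18165 were kept, and group means were tested by lmFit and eBayes (two-sided, with an intensity trend) at a threshold of 0.05. The fit was also run on simulated data, with equal spread on all arrays and shifts larger than those of the 46 genes. In the real data stellate replicate 3 stood apart, so that run does not bear on the calls made here. The number of arrays limits the precision, and 3 against 3 in an exact permutation test cannot reach 0.05.

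Probes were named through the platform annotation and RefSeq (30112 with 1 gene, 8 with several), and promoters come from RefSeq. The members, lists and tests were chosen with earlier results of these data known. Values on every array are given, in each role, for the gene of highest mean and the 2 of smallest p, and for PLK1, BIRC5 and CDCA3, picked after their values were seen. Of each list the changes are given for at most 4 genes past the threshold with the smallest p, for ACTB and GAPDH, and for others picked after their values were seen, among them MIS18A, HPRT1, TBP, RBL2, ANAPC11 and the markers. A fold against a group with no detected array is a bound, taken from that group's lowest signal among detected probes or its own, whichever is higher on each array. Numbers shared by replicates did not pair the samples. Alternatives were other background, normalization, filter, variance, probe and array choices.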

Additional observations from a re-analysis of the deposited data

How the results depend on the processing

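All settings tried gave a median change below 0 for the 46 genes (48 with no detection filter), between -1.45 and -0.85. The count of lower genes was 26 to 36 with no background correction, an offset of 50, cyclic loess, median scaling, no detection filter, detection on all 6 arrays, the authors' value table or probe means. Of all probes fitted, or probe means, 0.682% to 2.43% were lower in these settings. Median scaling moved the median of all probes to -0.20, so its changes are read against that. Without the intensity trend 11 genes were lower, beside 1.05% of all probes. With array weights 42 were lower and 1 higher (MIS12), beside 9.5% of all probes lower. In that fit 3357 of 18165 probes passed in either direction. With array brightness as a covariate, chosen after seeing the data, 9 were lower, beside 0.567% of all probes. Leaving out 1 array gave 5 to 42 lower and 0 to 1 higher, with 0.358% to 7.7% of all probes lower. Probes that passed in either direction ran from 152 to 2758 in these fits. PMF1 ran from -0.25 to 0.01, above 0 without replicate 3 with stellate cells (limma adjusted p = 0.982). The cause of these shifts was not tested. Replicates shared only a number. With the replicate block 34 genes were lower with a median of -1.13, beside 2.25% of all probes lower. The deviations of same-numbered samples correlated at -0.024, -0.031 and 0.080, with not every sample closest to its own number. The CHR share was 61.5%, and 51.3% with TTTGAA alone. Probes detected on few arrays, such as those of CENPI, limit what can be said of dim genes.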
